A study of Drosophila melanogaster with 20 samples.

Results

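Heat shock proteins and chaperones help other proteins to fold, keep damaged ones from clumping, and hand over what cannot be rescued for degradation. Their genes were followed in heads of male Drosophila melanogaster at 2 ages and in 2 genotypes. Members were taken by symbol from the deposited table: names with Hsp and a digit, names that begin with Hsc70, Cct, Tcp-1, T-cp1 or DnaJ, and l(2)efl, Hop, Droj2, mrj, stv, Gp93 and Hsf. This gave 34 of the 9831 genes in the table, and all 34 were tested. The rule also took Cct1 and Cct2, which the BDGP6 annotation names Pcyt1 and Pcyt2, a neighbouring pair of genes for enzymes of phosphatidylcholine synthesis. That leaves 32 genes for chaperones, co-chaperones and their regulator: 6 small heat shock proteins, 7 inducible Hsp70 genes, 4 constitutive Hsp70 and Hsp110 genes, 2 Hsp90-type genes, 6 chaperonin genes, 6 co-chaperones and Hsf.

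Wild-type heads came from young flies of 7 days (n = 5) and midlife flies of 22 to 23 days (n = 4), and chm/+ heads from flies of the same ages (n = 6 young, n = 5 midlife). Flies labelled chm/+ carry one mutant copy of chameau (chm), a gene for a MYST-family histone acetyltransferase, and the labels give neither the allele nor the genetic background of either genotype. All were males out of populations of both sexes, and each library was made from polyadenylated RNA of 25 to 30 pooled heads and read as 50-base single reads. The study asked how ageing differs between wild type and mutant.

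In flies, heat and other stresses that unfold proteins activate the transcription factor Hsf, which switches on the Hsp70, Hsp68, small Hsp and Hsp83 genes within minutes. Small heat shock proteins bind unfolding proteins without using ATP, Hsp70 proteins bind and release clients in an ATP cycle paced by J-domain partners, Hsp90 proteins finish the folding of signalling proteins, and chaperonins enclose clients in a ring. Several small Hsp genes are known to rise in old flies, and extra copies of some of them lengthen fly life.

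Values are normalized counts, adjusted by the authors to a common library size and not divided by transcript length, so levels of different genes are not compared. Column totals ran from 27572012 to 30470376 per library, read depth is unknown, and precision rests on the spread between libraries. chm stood at 588 to 676 in young and 571 to 678 in midlife wild type, against 283 to 351 and 304 to 364 in chm/+, so no library went against its genotype label. All 13 photoreceptor, neuron and glia markers sought were present. The first 10 and the last 10 columns of the table differed: the first component within groups, with 47% of the variance, separated them except for the midlife wild-type library 2uo2, which lay with the first 10. Each of these column sets holds all 4 groups, and no label says what they are. Libraries are named by their columns: 2uy young and 2uo midlife wild type, CHMy young and CHMo midlife chm/+. A pair of chm/+ libraries also stood apart. CHMy2 had the yolk protein gene Yp1 at 2716 against 90.8 to 317 in the other young chm/+ libraries, and Yp2 at 1413 against 43.3 to 164. Both are on the list of head fat body markers used here. The other genes found from that list, Lsp2 (327820) and to (1432), lay inside the range of the other young chm/+ libraries. CHMy2 was also the highest of the 6 young chm/+ libraries for all 7 inducible Hsp70 genes and all 6 chaperonin genes. CHMo12 had the stress-induced genes TotM and TotC at 137 and 1496, inside the young chm/+ ranges of 86.9 to 703 and 1172 to 2804, and was the lowest midlife chm/+ library for Hsp68, Hsc70-3, l(2)efl and Gp93. In extracts of whole heads, fewer cells of a type and less RNA per cell cannot be told apart.

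The first comparison was midlife with young wild type. Of the 34 genes 1 rose and 7 fell at an adjusted p under 0.05 (limma, Benjamini-Hochberg adjustment over all 9831 genes), where 12.4% of all genes rose and 11.3% fell. The total of 8 of 34 is a share near that of the whole table, where 23.7% of genes were called. In 6 of the 7 that fell, and in the 1 that rose, no midlife library overlapped a young one, which held for 9.30% of all genes in the lower and 10.9% in the higher direction. The second was midlife with young chm/+. Here 9 rose and 3 fell, against 8.63% and 7.36% of all genes and 16.0% called in either direction. All 3 that fell and 0 of the 9 that rose did so without overlap, beside 4.40% and 4.59% of all genes. The rises belonged to 6 near-identical Hsp70 copies, Hsp68, the small heat shock protein l(2)efl and the endoplasmic reticulum Hsp70 Hsc70-3, and the falls to Hsp67Bc, Hsp67Ba and Hsc70-1. The median log2 change over the 34 was 0.014 in wild type and 0.092 in chm/+, beside -0.019 and -0.009 over all genes. Changes are on the log2 scale of value plus 14.48. The number of calls in chm/+ depended on single libraries. It was 4 to 7 when CHMo3, CHMy11, CHMy12, CHMo2, CHMy3 or CHMo12 was left out, beside 12.6% to 17.7% of all genes. In each of these fits the 6 Hsp70 copies lost their calls together. Those of Hsp67Bc, Hsp67Ba, Hsc70-1 and Hsp68 stayed in all of them. Without CHMo12, CHMy2 and 2uo2 together 19 of the 20 calls with age remained. Without 2uo2 1 of the 20 was lost, that of Hsp23 in wild type.

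**Figure D1:**
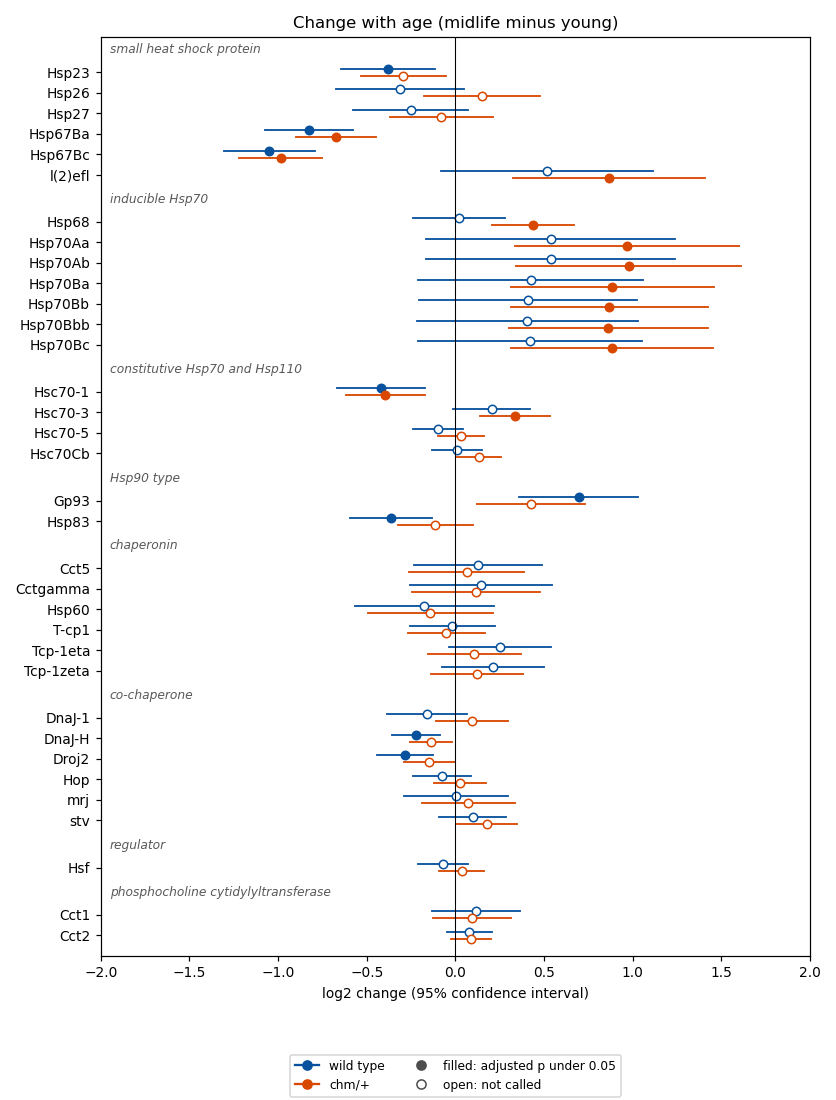
Change with age of each of the 34 genes as log2 midlife minus young with its 95% confidence interval, in wild type (blue) and chm/+ (orange), by class; filled points passed an adjusted p under 0.05. Hsp67Bc and Hsp67Ba lie far to the left in both genotypes, and the inducible Hsp70 genes are filled in chm/+ and open in wild type.

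The small heat shock proteins moved in different directions. Hsp67Bc, a small heat shock protein that works with Starvin in autophagy of misfolded proteins, had the lowest change with age of all 34 genes. Its values in libraries 2uy1 to 2uy5 were 173, 150.2, 144, 173 and 174, and in midlife wild type (2uo1, 2uo2, 2uo4, 2uo5) they were 87.5, 71.3, 61.6 and 66.0. Young chm/+ libraries lay between 145 and 185 with a median of 161, and midlife chm/+ libraries (CHMo2, CHMo3, CHMo5, CHMo11, CHMo12) stood at 93.7, 85.2, 60.7, 56.7 and 87.8. Every midlife library was below every young one in both genotypes. The log2 change was -1.05 (adjusted p = 4.88e-06, SE 0.12) in wild type and -0.99 (adjusted p = 4.89e-06, SE 0.11) in chm/+. It was -1.12 and -1.01 in the first and second column set in wild type, and -0.82 and -1.08 in chm/+.

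Hsp67Ba, which lies in the same cluster of small heat shock genes on arm 3L, fell in the same way. Young wild-type libraries stood at 835, 699.6, 731, 696 and 578, and midlife ones at 385, 450.0, 399 and 337. Young chm/+ libraries lay between 526 and 682 with a median of 656, and midlife ones stood at 429.8, 408, 295, 395 and 421. Again no midlife library reached a young one of its genotype. The log2 change was -0.82 (adjusted p = 5.35e-05, SE 0.12) in wild type and -0.67 (adjusted p = 0.00022, SE 0.11) in chm/+, with -1.01 and -0.59 by column set in wild type and -0.68 and -0.63 in chm/+. In the BDGP6 annotation an antisense RNA, asRNA:CR43481, covers 76% of the exon bases of Hsp67Ba. Whether the counting used strand is not given in the sources used here, so reads of the antisense RNA cannot be told apart from those of Hsp67Ba.

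The other members in this cluster had smaller changes with age. In BDGP6 the order on 3L is Hsp67Bc, CG4456, Hsp22, CG4461, Hsp26, Hsp67Ba, the antisense RNA, Hsp23 and Hsp27, and Hsp22 is not analysed here. Hsp23, a small heat shock protein that is also expressed without stress in the nervous system and gonads, had young wild-type values of 540.2, 483, 485, 470.5 and 436 and midlife values of 341, 348, 357 and 429. No midlife library was as high as a young one, and the log2 change was -0.38 (adjusted p = 0.0349, SE 0.13), or -0.35 and -0.38 by column set. That call was lost when 2uo1, 2uo2, 2uo4, 2uy1, 2uy2 or 2uy3 was left out, with an adjusted p of up to 0.0862. It was also lost in a fit that blocks on the number in the column name (adjusted p = 0.15). In chm/+ Hsp23 lay between 442 and 599 with a median of 513 in young and at 541, 466, 343, 334 and 428 in midlife libraries, which overlap, with a log2 change of -0.29 (adjusted p = 0.0911, SE 0.11). Hsp26, whose overexpression lengthens fly life, was not called, at -0.31 (log2, adjusted p = 0.22) in wild type and 0.15 (log2, adjusted p = 0.622) in chm/+. Nor was Hsp27, another small heat shock protein with that effect, at -0.25 (log2, adjusted p = 0.272) and -0.079 (log2, adjusted p = 0.795). Their groups overlapped throughout. Hsp26 ranged over 115 to 188, 92.0 to 138, 93.3 to 174 and 117 to 185 in young and midlife wild type and young and midlife chm/+, and Hsp27 over 84.7 to 130.4, 72.0 to 112, 89.9 to 150.0 and 84.3 to 131.

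l(2)efl, the fly alpha-B-crystallin-like small heat shock protein, lies on another chromosome and moved the other way. In young chm/+ it lay between 395 and 752 with a median of 489, and in midlife chm/+ it stood at 1584, 1204, 766, 938 and 568. CHMo2 and CHMo3 were the highest of these, and CHMo12 was the lowest and inside the young range. The log2 change in chm/+ was 0.87 (adjusted p = 0.0264, SE 0.26), and 1.18 and 0.72 in the 2 column sets. The call was lost when CHMo11, CHMo2, CHMo3, CHMy11, CHMy12 or CHMy4 was left out, with an adjusted p of up to 0.087. Young wild-type libraries stood at 801, 824, 853, 417 and 409.9 and midlife ones at 594, 946, 1089 and 1088, with a log2 change of 0.52 (adjusted p = 0.217, SE 0.29). In wild type the young libraries 2uy4 and 2uy5, both of the second column set, were about as low as the young chm/+ libraries, and 2uo1 was the lowest at midlife. Between column sets l(2)efl differed by -0.70 on the log2 scale (second minus first), and 0.9% of all genes had a value as low. In BDGP6 10% of the exon bases of l(2)efl are overlapped from the other strand by St3, so their reads cannot be fully told apart.

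**Figure D2:**
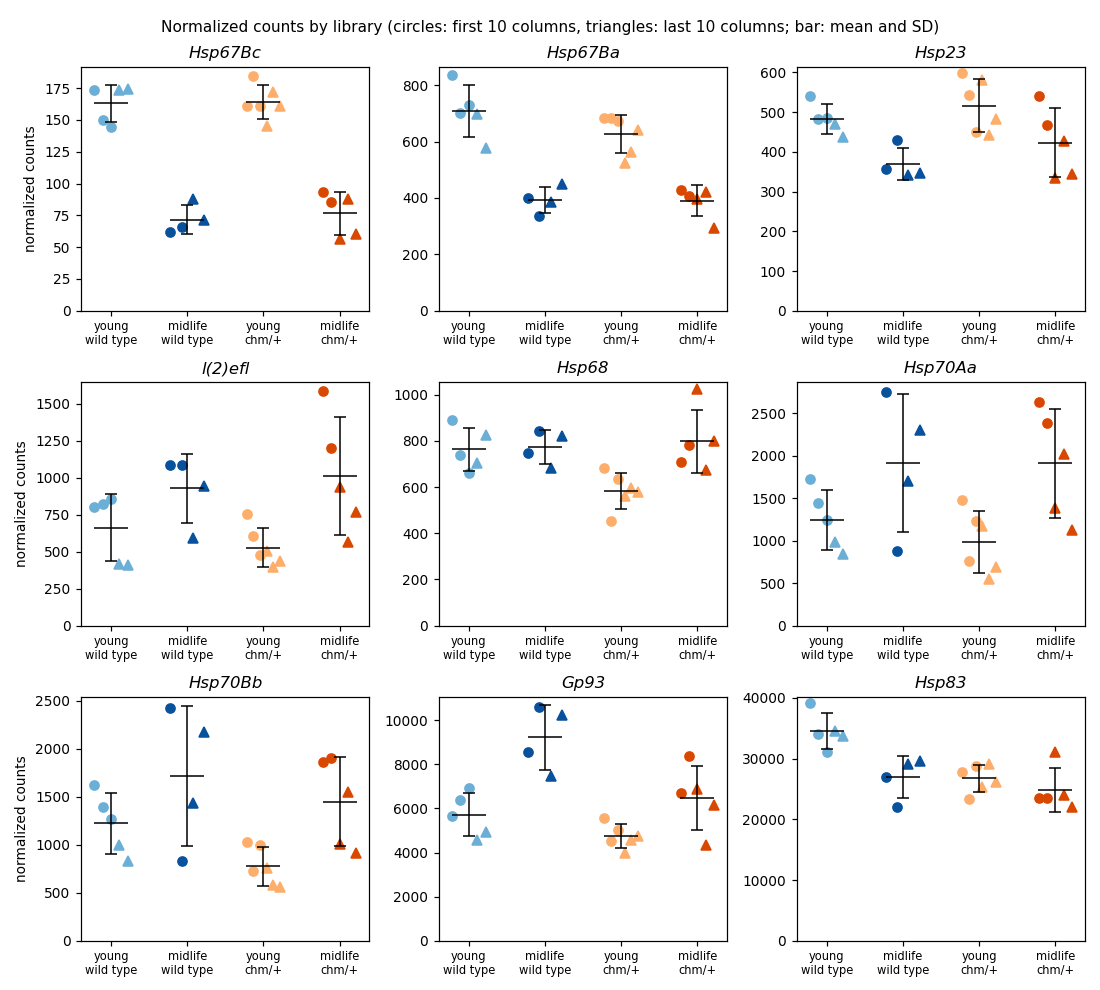
Normalized counts of 9 genes in each library by group, with the mean and SD as bars; circles are libraries of the first 10 columns and triangles those of the last 10. Young and midlife points are apart in both genotypes for Hsp67Bc and Hsp67Ba, while for l(2)efl, Hsp70Aa and Hsp70Bb the midlife points spread from the young level up.

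The inducible Hsp70 genes are kept low in unstressed cells and respond strongly to heat. The fly carries 2 copies at the A locus (Hsp70Aa, Hsp70Ab) and 4 at the B locus (Hsp70Ba, Hsp70Bb, Hsp70Bbb, Hsp70Bc), so alike that 50-base reads can fit several of them. In every library the 2 A copies were within 1.42% of each other and the 4 B copies within 12.1%. Counts of the copies are therefore uncertain singly, and their 6 calls are not 6 independent results.

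Hsp70Aa stood at 2636, 2388, 1130.0, 1390.5 and 2017 in midlife chm/+, and its young chm/+ libraries lay between 551 and 1476 with a median of 967. The lowest midlife libraries, CHMo5 and CHMo11, lay inside the young range. Its log2 change was 0.97 (adjusted p = 0.0343, SE 0.30). Hsp70Bb stood at 1861, 1903, 917, 1007 and 1552 at midlife and lay between 556 and 1027 with a median of 742 in young chm/+, a log2 change of 0.87 (adjusted p = 0.0307, SE 0.27). The other copies changed by 0.98 (Hsp70Ab), 0.89 (Hsp70Ba), 0.86 (Hsp70Bbb) and 0.88 (Hsp70Bc), with adjusted p between 0.0319 and 0.0333. By column set the change of Hsp70Aa was 1.16 and 0.93, and that of Hsp70Bb 1.04 and 0.84. All 6 calls were lost when CHMo12, CHMo2, CHMo3, CHMy11, CHMy12 or CHMy3 was left out, with adjusted p up to 0.0969 for Hsp70Aa.

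In wild type the same copies were not called. Hsp70Aa stood at 1728, 1439.6, 1244, 984 and 845 in young and 1706, 2309.9, 2755 and 884 in midlife libraries, a log2 change of 0.54 (adjusted p = 0.281, SE 0.34) with a 95% interval of -0.16 to 1.24. Hsp70Bb stood at 1625, 1398, 1265, 995 and 835 in young and 1434, 2172, 2430.3 and 831 in midlife libraries, a log2 change of 0.41 (adjusted p = 0.363, SE 0.29) with an interval of -0.21 to 1.02. Library 2uo5 was close to the lowest young library for both genes, and 2uo4 and 2uo2 were higher than every young one. The change differed by column set, at 0.10 and 1.11 for Hsp70Aa. The change in chm/+ minus that in wild type was 0.43 for Hsp70Aa (95% interval -0.52 to 1.38, adjusted p = 0.956), so the pair of responses was not shown to differ.

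Hsp68, an Hsp70-type protein with a single gene, does not share this ambiguity. Its young chm/+ libraries lay between 452 and 680.5 with a median of 588, and its midlife ones stood at 709, 784, 801, 1024 and 673. CHMo12 was inside the young range, the other midlife libraries were above it, and CHMo11 was the highest of all 20 libraries. The log2 change was 0.44 (adjusted p = 0.00975, SE 0.11), with 0.35 and 0.49 by column set, and it was called with any single library left out. In a fit that blocks on the number in the column name (the replicate block), with 4 pairs of chm/+ libraries, its adjusted p was 0.0934. Wild-type libraries stood at 891, 737, 663, 703 and 824 when young and 681, 820.4, 747 and 842 at midlife, a log2 change of 0.02 (adjusted p = 0.934, SE 0.12). Of the members, Hsp68 had the smallest unadjusted p for a difference between the genotypes in the change with age, 0.0211 (log2 0.42, adjusted p = 0.635).

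**Figure D3:**
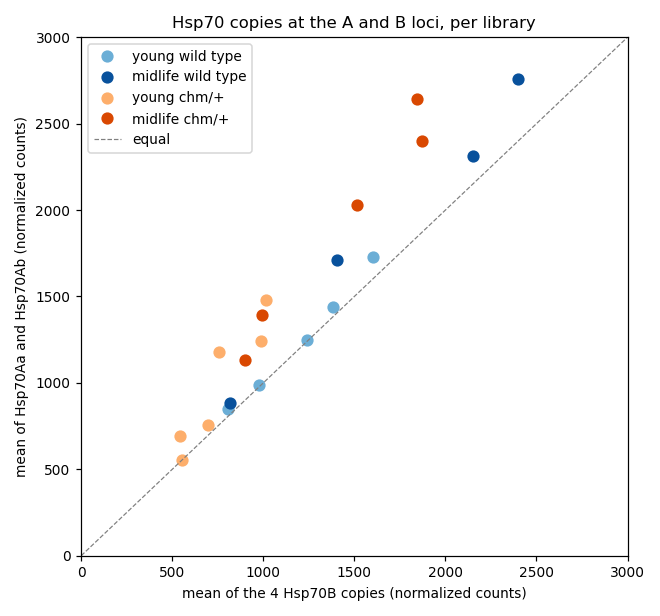
Mean of the 2 Hsp70A copies against the mean of the 4 Hsp70B copies in each of the 20 libraries, in normalized counts, with the dashed line of equal values. Young wild-type points lie close to the line, midlife wild-type points somewhat above it, and most chm/+ points farther above it for their level.

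The constitutive Hsp70 genes serve cells that are not stressed. Hsc70-3, the BiP chaperone of the endoplasmic reticulum, stood at 17600.0, 20744, 18605, 18056 and 14410.0 in midlife chm/+ and lay between 11813 and 16743 with a median of 14077 in young chm/+. CHMo12 was within the young range, and the other midlife libraries were above every young one. The log2 change was 0.34 (adjusted p = 0.018, SE 0.094), or 0.52 and 0.18 by column set. Without CHMo3 it had an adjusted p of 0.0642, with the replicate block 0.283, and with only the compared groups in the fit 0.0661. In wild type it stood at 15461, 15746, 15655, 15675 and 18418 in young and 18522, 18403, 18027 and 19603 in midlife libraries, a log2 change of 0.21 (adjusted p = 0.172, SE 0.10).

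Hsc70-1, an Hsp70-type gene, fell in both genotypes. Its values were 639, 504, 577, 446 and 441 in young and 375, 346, 455 and 358 in midlife wild type. In chm/+ they lay between 453 and 501 with a median of 478 when young and stood at 420.5, 373, 296, 308 and 420.4 at midlife. The groups did not overlap in chm/+ and did in wild type. The log2 changes were -0.42 (adjusted p = 0.0137, SE 0.12) and -0.39 (adjusted p = 0.015, SE 0.11). In chm/+ the call was lost without CHMo11 or CHMo5 (adjusted p up to 0.0543) and with the replicate block (adjusted p = 0.124). In wild type it was lost with the replicate block (adjusted p = 0.191). Hsc70-5, the mitochondrial Hsp70, and Hsc70Cb, the fly Hsp110 and nucleotide exchange factor of Hsp70, were not called, with log2 changes of -0.098 and 0.0082 in wild type and 0.032 and 0.13 in chm/+. Hsc70-4, the main cytosolic form, is not analysed here.

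Both Hsp90-type genes changed in wild type, in opposite directions. Gp93, the Hsp90 of the endoplasmic reticulum, stood at 5666, 6392, 6936, 4589 and 4953 in young and 7459, 10253, 8582 and 10616 in midlife wild type. It was the member that rose in wild type, and every midlife library was above every young one. The log2 change was 0.69 (adjusted p = 0.00356, SE 0.16), with 0.60 and 0.87 by column set. In chm/+ it lay between 3986 and 5588 with a median of 4653 in young libraries and stood at 6698, 8371, 6139, 6865 and 4337 at midlife, a log2 change of 0.43 (adjusted p = 0.0509, SE 0.14). This missed the threshold by little and passed it without 2uo1, 2uy3, 2uy4, CHMo12 or CHMy2 (adjusted p as low as 0.00448). The change in chm/+ minus that in wild type was -0.27 (95% interval -0.72 to 0.18, adjusted p = 0.915).

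Hsp83, the cytosolic Hsp90, stood at 39201, 34144, 31168, 34550.0 and 33799 in young and 29079, 29628, 27010.0 and 22090.0 in midlife wild type, with no overlap. The log2 change was -0.36 (adjusted p = 0.0217, SE 0.11), with -0.51 and -0.22 by column set. The call was lost without 2uo5 or 2uy1, with an adjusted p of up to 0.108. It was also lost with only the compared groups in the fit (adjusted p = 0.0515) and with the replicate block (adjusted p = 0.146). In chm/+ Hsp83 lay between 23327 and 29095 with a median of 26939 in young libraries and stood at 23566, 23506, 21987, 31072 and 24061 at midlife, a log2 change of -0.11 (adjusted p = 0.537, SE 0.10). Young chm/+ libraries were all below the young wild-type ones, at a level that overlaps midlife wild type.

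Other genes of the endoplasmic reticulum also rose in wild type. Of 20 further genes of folding and stress in that compartment, 10 rose and 0 fell in wild type, where 12.4% of all genes rose (12 at an unadjusted p under 0.05, which 34.5% of all genes had), with a median log2 change of 0.24 beside -0.019 over all genes. In chm/+ 3 rose, beside 8.63% of all genes, and 0 fell, with a median of 0.097. CaBP1, a protein disulfide isomerase, stood at 1623 ± 196 (SD, n = 5) in young and 2455 ± 307 (SD, n = 4) in midlife wild type. It rose there by 0.59 (adjusted p = 0.00144, SE 0.12), and by 0.35 (log2, adjusted p = 0.0362) in chm/+. Pdi, the main disulfide isomerase, rose by 0.50 (log2, adjusted p = 0.00249), and Der-1, part of the channel that exports misfolded proteins for degradation, rose by 0.41 (log2, adjusted p = 0.00429). In chm/+ the other called genes were Ero1L, the oxidase that recharges Pdi, at 0.25 (log2, adjusted p = 0.0192), and Xbp1, the transcription factor of the unfolded protein response, at 0.31 (log2, adjusted p = 0.0454). In the difference of the 2 changes with age, 0 of the 20 were called by limma and 2 had an unadjusted p under 0.05.

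Haemocyte genes moved with age in the same wild-type libraries. Of 5 markers of these blood cells 3 rose in wild type (Hml, NimC1 and eater) and 0 did in chm/+, where Pxn fell. Over all genes 12.4% rose and 11.3% fell in wild type, and 8.63% rose and 7.36% fell in chm/+. These shares also stand beside the counts of the lists below. The summed level of the 5 haemocyte markers was 8264 to 11030.0 in young and 13400.0 to 15036 in midlife wild type. In chm/+ it was 9497 to 11553 and 9555 to 14291. Of 5 neuron markers 2 fell in wild type (nSyb and Syt1) and 0 in chm/+, with sums of 77721 to 94518, 49081 to 74516, 70820.0 to 93375 and 59053 to 92068 in the same order of groups. Of 4 head fat body markers 0 were called in wild type and 1, Lsp2, fell in chm/+. Of 5 photoreceptor markers 1 (inaD) fell in both genotypes, and of 3 glia markers 1 (moody) rose in wild type. Of 5 muscle markers 0 were called with age, while fln was higher in chm/+ at both ages. Between the genotypes 1.45% of all genes were called in young flies and 1.95% at midlife. Of 2 gut genes found, Amy-p rose in both genotypes, and of 6 accessory gland and testis genes sought 1 was found, betaTub85D, which lay between 33.5 and 75.9 over all libraries and rose in chm/+ by 0.44 (log2, adjusted p = 0.0103). Their part in the changes of Gp93, Hsp83 and the other members was not tested.

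The chaperonins form 2 machines, Hsp60 in mitochondria and the cytosolic ring that folds actin and tubulin (T-cp1, Cctgamma, Cct5, Tcp-1zeta and Tcp-1eta). Of these 6 genes 0 were called by limma with age in either genotype, and 0 had an unadjusted p under 0.05. In wild type the log2 changes lay between -0.18 (Hsp60) and 0.25 (Tcp-1eta), and in chm/+ between -0.14 and 0.12 (Tcp-1zeta). With the first column set alone Hsp60 was called lower at midlife in wild type, with a log2 change of -0.37, and in the second set that change was 0.14. Hsp60 ranged over 7689.6 to 12815, 7359.6 to 11030.0, 6372 to 12467 and 7069 to 9012 in young and midlife wild type and young and midlife chm/+.

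Chaperonin values differed by column set. Over the 4 groups the second set minus the first had a median of -0.31 on the log2 scale for the 6 genes, with a range of -0.46 to -0.23, beside -0.002 over all genes, of which the middle 90% lay between -0.41 and 0.43. Without library 2uo2 the median was -0.37. Cctgamma, which had the largest shift, ranged from 1394 to 1988 in the first set and from 1003 to 1403 in the second without 2uo2, which stood at 1778. T-cp1, which had the smallest, ranged from 1908 to 2560 and from 1700 to 2071, with 2uo2 at 2127, so its sets overlapped more. A group of 9 other chaperonin and prefoldin genes (prefoldin passes new actin and tubulin to the ring) had a median of -0.19, and 0 of these 9 were called by limma with age, with 1 at an unadjusted p under 0.05 in each genotype. The inducible Hsp70 genes had a median of -0.40. It came from the 6 near-identical Hsp70 copies, at -0.412 (Hsp70Ba) to -0.395 (Hsp70Bb), while Hsp68 stood at 0.014.

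**Figure D4:**
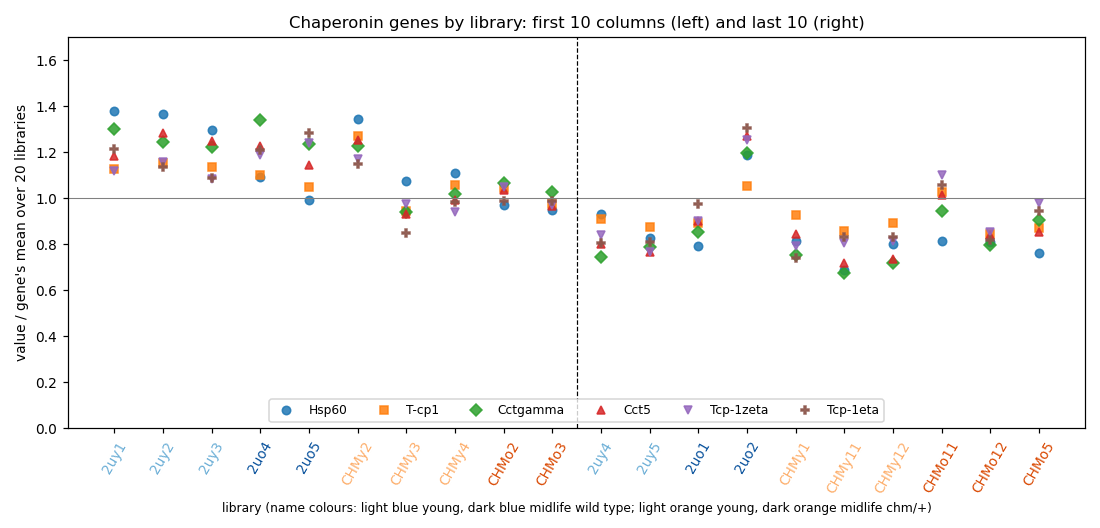
The 6 chaperonin genes in each library, as the value divided by that gene's mean over 20 libraries; libraries of the first 10 columns are left of the dashed line, and name colours mark age and genotype. The 6 genes move together from library to library, stand higher on the left, and 2uo2 on the right is as high as the left side.

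Co-chaperones steer Hsp70 and Hsp90. Of 6 genes 2 fell in wild type, where 11.3% of all genes fell, and 0 were called in chm/+, where 16.0% of all genes were. At an unadjusted p under 0.05 there were 3 in chm/+, beside 27.4% of all genes. Droj2, a J-domain partner of Hsp70, stood at 13619, 12135, 11636, 12031 and 11005 in young and 10124, 10002, 10147 and 9306 in midlife wild type. All midlife libraries were below the young ones, with a log2 change of -0.29 (adjusted p = 0.0101, SE 0.076). DnaJ-H, another J-domain protein, stood at 3422, 3214, 3273, 3250.5 and 2911 in young and 2677, 2778, 2824 and 2714 in midlife libraries, again with no overlap and a log2 change of -0.22 (adjusted p = 0.0149, SE 0.064). Both calls were lost with the replicate block (adjusted p = 0.168 for Droj2 and 0.263 for DnaJ-H). In chm/+ the changes were -0.15 (log2, adjusted p = 0.171) for Droj2 and -0.14 (log2, adjusted p = 0.121) for DnaJ-H. In BDGP6 23% of the exon bases of DnaJ-H are overlapped from the other strand by Sirt1 (Sir2 in this table), so their reads cannot be fully told apart.

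The other co-chaperones were not called. DnaJ-1, the J protein that heat induces, stood at a change of -0.16 (log2, adjusted p = 0.328) in wild type and 0.091 (log2, adjusted p = 0.623) in chm/+. The log2 changes in wild type and chm/+ were -0.076 and 0.025 for Hop, which bridges Hsp70 and Hsp90, and 0.0047 and 0.072 for mrj, a J-domain protein. They were 0.097 and 0.18 for stv, the gene of the BAG-domain partner Starvin. Beyond the members, of 31 other J-domain genes 4 rose and 3 fell in wild type, and 2 rose and 0 fell in chm/+. Over all genes 23.7% were called in wild type and 16.0% in chm/+, so the 7 of 31 in wild type are a share near that of the whole table. P58IPK, a J protein of the endoplasmic reticulum, rose by 0.60 (log2, adjusted p = 0.00128) in wild type and 0.40 (log2, adjusted p = 0.016) in chm/+, and aux, the J protein that uncoats clathrin vesicles, changed by -0.24 (log2, adjusted p = 0.00971) in wild type. CG4164 rose by 0.43 (log2, adjusted p = 0.0107) in wild type and Rme-8, a J protein of endosomes, by 0.26 (log2, adjusted p = 0.0124) in chm/+. Between the genotypes CG43322 was called, higher in young chm/+ by 0.34 (log2, adjusted p = 0.0401). Of 16 cofactors of Hsp70 and Hsp90, 1 rose and 1 fell in each genotype, beside the same shares of all genes. The one that rose, CG2918, which RefSeq names Grp170, an Hsp110-type chaperone of the endoplasmic reticulum, changed by 0.42 (log2, adjusted p = 0.000776) and 0.34 (log2, adjusted p = 0.0027). The one that fell, Tom70, the mitochondrial import receptor that takes clients from chaperones, changed by -0.30 (log2, adjusted p = 0.0187) and -0.32 (log2, adjusted p = 0.009). Of 13 genes of mitochondrial protein quality control 0 rose and 1 fell in each genotype, beside 11.3% of all genes that fell in wild type and 7.36% in chm/+, namely CG11267 in wild type and CG5045 in chm/+. CG11267, for which RefSeq gives the synonym Hsp10, the lid of the Hsp60 chamber, changed by -0.30 (log2, adjusted p = 0.0291). CG5045, the protease subunit ClpP, changed by -0.18 (log2, adjusted p = 0.0192).

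Hsf, the regulator of the heat shock genes, stood at 2343, 2040.5, 2171, 2312 and 2354 in young and 2401, 2181, 2106 and 1888 in midlife wild type. It lay between 2295 and 2550.2 with a median of 2348 in young chm/+ and stood at 2426, 2442, 2346, 2538 and 2519 at midlife. The ages overlapped in both genotypes, with log2 changes of -0.069 (adjusted p = 0.527, SE 0.067) and 0.035 (adjusted p = 0.793, SE 0.061). Of 24 other heat and stress genes, 9 rose and 2 fell in wild type, where 12.4% of all genes rose and 11.3% fell. In chm/+ 8 rose and 2 fell, beside 8.63% and 7.36% of all genes. The genes that fell were CG7409 and CG4461 in both genotypes. CG7409 stood at 1439 ± 216 (SD, n = 5) in young and 641 ± 64.2 (SD, n = 4) in midlife wild type, a log2 difference of -1.14 (adjusted p = 1.00e-05, SE 0.14). Its chm/+ values were 1282 ± 198 (SD, n = 6) when young and 607 ± 111 (SD, n = 5) at midlife, a difference of -1.07 (adjusted p = 9.55e-06, SE 0.13). CG4461, for which RefSeq gives the synonym Hsp20 and which lies between Hsp22 and Hsp26, stood at 427 ± 50.2 (SD, n = 5) when young and 199 ± 14.3 (SD, n = 4) at midlife in wild type. The log2 difference was -1.04 (adjusted p = 2.06e-05, SE 0.14) there and -0.70 (adjusted p = 0.000589, SE 0.12) in chm/+. No midlife library reached a young one for CG7409 in either genotype, nor for CG4461 in wild type. Among those that rose were Thor, the translation repressor 4E-BP, at 0.73 (log2, adjusted p = 0.000765) and 0.72 (log2, adjusted p = 0.000493), and MtnB, a metal-binding metallothionein, at 2.30 (log2, adjusted p = 5.34e-05) and 0.93 (log2, adjusted p = 0.0383).

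The next comparison was chm/+ with wild type at each age. Of the 34 genes 0 were called in young flies and 0 at midlife (limma), beside 1.45% and 1.95% of all genes. At an unadjusted p under 0.05 there were 9 in young flies, beside 15.3% of all genes, and 4 at midlife, beside 13.3%. In young flies 27 of the 34 changes were negative, with a median of -0.16 beside -0.001 over all genes, and at midlife 18 were, with a median of -0.022. The 27 include all 7 inducible Hsp70 genes and all 6 chaperonin genes, and the 9 include 5 inducible Hsp70 genes. Since the Hsp70 copies share reads and the chaperonin genes move together, these counts are not of independent genes. The lowest p in young flies was that of Hsp83. It averaged 34572 ± 2907 (SD, n = 5) over wild-type libraries and 26734 ± 2221 (SD, n = 6) over those of chm/+, which differ by -0.37 (adjusted p = 0.0747, SE 0.10) on the log2 scale. It was the member whose young groups did not overlap, beside 1.18% of all genes lower without overlap, and its adjusted p was 0.0407 without CHMo11. Hop followed at -0.25 (adjusted p = 0.0837, SE 0.07) and Hsp68 at -0.38 (adjusted p = 0.101, SE 0.11). The 4 Hsp70B copies were between -0.66 (Hsp70Bbb) and -0.65 (Hsp70Ba), with a 95% interval of -1.22 to -0.072 for Hsp70Ba and adjusted p of at least 0.251.

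The count in young flies depended on how libraries were weighted. With limma's array weights 3 of the 34 were higher and 17 lower in chm/+, but 32.5% of all genes were then called too. With the column set as a term 2 were lower, Hop and Hsp83, beside 4.01% of all genes. At midlife the lowest p was that of Gp93. Wild-type libraries averaged 9228 ± 1475 (SD, n = 4) and those of chm/+ 6482 ± 1456 (SD, n = 5), a log2 difference of -0.53 (adjusted p = 0.124, SE 0.16). It was called without CHMo3 (adjusted p = 0.0471), with the column set as a term and with the replicate block. In the last 2 fits 3.63% and 3.6% of all genes were called, against 1.95% in the main fit. At midlife the block matched only 2uo2 with CHMo2 and 2uo5 with CHMo5, by column number, and no label ties these libraries. Hsf differed by 0.20 (adjusted p = 0.183, SE 0.067) and was called without 2uo1 (adjusted p = 0.0499) and with array weights. Hsc70-5 was higher in all midlife chm/+ libraries than in all wild-type ones, at 8228, 8358, 7885, 9022 and 8409 against 7569.6, 7848, 7797 and 6785, with a log2 difference of 0.16 (adjusted p = 0.312, SE 0.068), where 2.09% of all genes were higher without overlap.

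**Figure D5:**
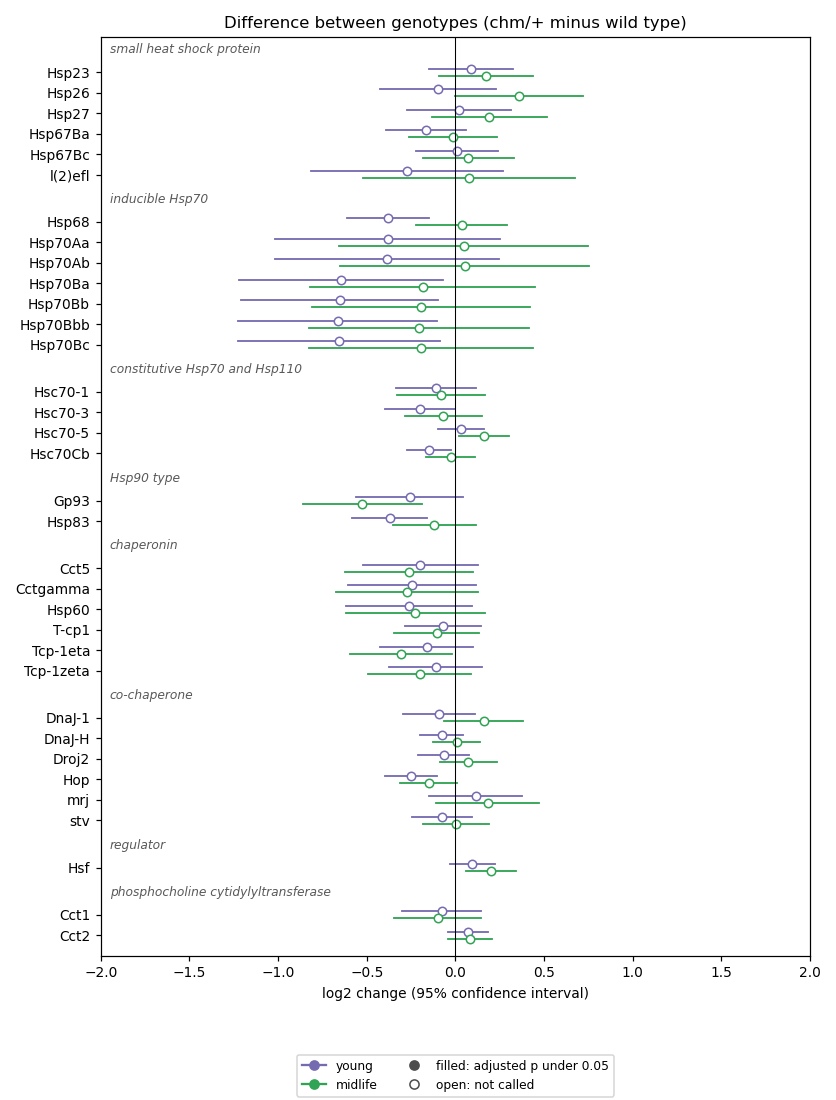
Difference of each of the 34 genes between genotypes as log2 chm/+ minus wild type with its 95% confidence interval, at 7 days (purple) and at 22 to 23 days (green), by class. All points are open, since none passed an adjusted p under 0.05, and the purple points of the inducible Hsp70 genes, Hsp83 and Hop lie left of zero.

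Of the 24 other heat and stress genes 0 were called between the genotypes in young flies, and 1 was higher and 1 lower in chm/+ at midlife. Over all genes 1.45% were called in young flies and 1.95% at midlife, where 2.09% were higher in chm/+ without overlap. Hsromega, a noncoding RNA that heat induces and that gathers RNA-binding proteins in the nucleus, ranged over 4677 to 8718 in midlife wild type and 10146 to 14037 in midlife chm/+, without overlap. The log2 difference was 0.90 (adjusted p = 0.0129, SE 0.19), and 0.86 and 0.91 by column set. In young flies it was 0.49 (adjusted p = 0.179, SE 0.17), with ranges of 4884 to 7553 and 6660.2 to 11272. The lower one was MtnB, at -1.29 (adjusted p = 0.0491, SE 0.33), with overlapping groups and a call that was lost in 18 of the 20 fits with 1 library left out.

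The last comparison was the change with age in chm/+ minus that in wild type. Of the 34 genes 0 were called by limma, where 0.356% of all genes were, and 1 (Hsp68) had an unadjusted p under 0.05, where 6.66% of all genes did. None was called under any alternative that was run for this comparison. The differences ran from -0.27 (Gp93) to 0.46 (Hsp70Bc), with a median of 0.11 beside 0.011 over all genes. So a gene called with age in one genotype and not in the other, such as the Hsp70 copies, Hsp83 or Droj2, was not shown to respond differently. The intervals are wide for the Hsp70 copies, at -0.37 to 1.29 for Hsp70Bb, and narrow for DnaJ-H, at -0.094 to 0.27. For Hsp67Bc the difference was 0.064, with an interval of -0.28 to 0.41.

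The 2 phospholipid genes that the naming rule took were not called in any comparison. Cct1 had a change with age of 0.12 (log2, adjusted p = 0.543) in wild type and 0.093 (log2, adjusted p = 0.655) in chm/+, and Cct2 one of 0.078 (log2, adjusted p = 0.398) and 0.088 (log2, adjusted p = 0.319). Every midlife chm/+ library was above every young one for Cct2, where 4.59% of all genes were higher without overlap.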

How the data were processed

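RNA from heads was sequenced in 20 libraries. Per the submitters' processing notes, TopHat2 2.0.5, the build BDGP5 and edgeR were used, with counter, annotation, strand use and low-count filter not given in the sources used here. Deposited by the authors was 1 table of 9831 genes whose values are a signal: counts adjusted to a common library size, not whole and not per length. Whole reads could not be recovered: between 9.4% and 40.2% of the values under 20 lay within 0.02 of a whole multiple of a fitted step in 19 libraries, and 80.8% in 1. No count model was run.

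To each value 14.48 (0.5 CPM of the mean total) was added before log2 was taken. A limma 3.58.1 model (R 4.3.3) with 1 mean for each group, a mean trend and no gene left out was fitted to the 20 libraries together, and the script was checked on simulated data. Calls are two-sided at a Benjamini-Hochberg adjusted p under 0.05 over all genes of a comparison; adjusted p values are from limma throughout. Column names give a group but do not tie a column to a listed sample, and no source says that replicates came from separate cultures, so p values measure the spread between these libraries. Across genes, libraries of the same group correlated at 0.972 to 0.997. The numbers in column names were checked for pairing of young with midlife libraries by correlating deviations from group means: in chm/+ all 4 same-numbered pairs were over 0.1 (0.165 to 0.635), but each also shared a column set, and in wild type 1 of 4 was.

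The members, lists and rules were chosen with earlier results of these data known. Named in full are chm, Hsf, every member called, every small and inducible Hsp70 gene, the highest of each other class by mean value, and from other lists at most 3 called genes with the smallest p per comparison. DnaJ-1, Hop, mrj, stv, Hsc70-5, Hsc70Cb and Cct2 were named after their values were seen. Gene order, overlaps and newer names are from the BDGP6 annotation, in which all 34 were found by ID, and no coordinates are given because the builds differ. Class and list counts carry no set test. Alternatives were other addends, scalings, low-value filters, variance models and weights, a column set term, each set alone, a replicate block, fewer groups in the fit, and leaving out each library.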

Additional observations from a re-analysis of the deposited data

Results flagged for a closer look

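In 88 groups of 4 to 6 libraries of the members named in full, 3 values lay farther from the nearest other library than Dixon's 95% limit allows, where chance alone marks about 1 in 20 groups. Hsc70-3 stood at 18418 in the young wild-type library 2uy5, above the other 4. Hsp67Ba stood at 295 in the midlife chm/+ library CHMo5, below the other 4. Hsp83 stood at 31072 in the midlife chm/+ library CHMo11, above the other 4.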

How the results depend on the processing

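No result turned its direction in a called comparison: all 20 called changes kept their sign in all settings. With both addends, both scalings, array weights, the column set term and no mean trend all 20 also stayed called, 18 did with the groups compared alone, and 18 of 18 with a mean of at least 5 CPM. With age in wild type the 8 calls became 3 with the replicate block and 1 in the second column set alone. Over all genes 7.75% and 4.15% were called in those fits, against 23.7% in the main one. With 1 library left out the calls were 6 to 8, beside 16.3% to 24.4% of all genes. In chm/+ the 12 became 9 with the replicate block (7 higher, 2 lower), beside 8.59% of all genes. They became 15 with the column set term and 14 with array weights, beside 22.4% and 23.3%. In the first set they were 5 and in the second 2, beside 19.4% and 3.71%. With 1 library left out they were 4 (without CHMo3) to 13, beside 12.6% to 17.7% of all genes. They were 7 without CHMo12, 6 without CHMo2 or CHMy3, and 5 without CHMy11 or CHMy12. Between genotypes the 0 calls in young flies became 20 with array weights and 2 with the set term, beside 32.5% and 4.01% of all genes. With 1 library left out they were 0 to 1 (1 without CHMo11). At midlife they became 1 with array weights, the set term or the replicate block, beside 6.37%, 3.63% and 3.6% of all genes. They were 0 to 1 there with 1 library left out. In the comparisons with age the block uses 4 pairs per genotype. Between genotypes at midlife it matched only 2uo2 with CHMo2 and 2uo5 with CHMo5, and each match joins libraries of different column sets. In wild type its numbers did not pair the libraries (r = -0.533 to 0.352). For the genotype difference in the change with age the count was 0 throughout. Without CHMo12, CHMy2 and 2uo2, the libraries that stood apart, left out together after the data were seen, 19 of the 20 calls remained, and Hsp23 in wild type did not (adjusted p = 0.0858). A filter of 1 CPM in 4 libraries, also added later, kept all 20. The cause of these shifts was not tested. The main fit used no low-value filter, so no separate fit without one was run. Depth is unknown, so what it limits cannot be given.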

Other observations

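The ratio of the mean of the 2 Hsp70A copies to the mean of the 4 Hsp70B copies was chosen after its values were seen, and no test was run on it. In wild type it ran from 1.01 to 1.08 in young and from 1.08 to 1.22 in midlife libraries. In chm/+ it ran from 0.999 to 1.56 in young and from 1.26 to 1.44 in midlife libraries. In 9 of the 11 chm/+ libraries it was above the highest of the 9 wild-type libraries, and the exceptions were the young libraries CHMy3 and CHMy11. How the authors counted reads that fit several copies is not given in the sources used here.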
